A study of Mus musculus with 26 samples.

Results

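RNA of gonads from XY mouse embryos at embryonic day E13.5 was compared between 2 deletions at the Fgf9 locus, Δ93 and Δ104, to describe how far each had moved from testis-type towards ovary-type gene expression. The comparison uses the 6 libraries whose count columns are named for Δ93 (genotype Fgf9 delta93) and the 4 named for Δ104 (genotype Fgf9 delta104), 10 of the 26 samples of the series and 10 of the 22 libraries in the table that holds all deletions. The 3 wild-type (WT) libraries, labelled with the same stage and tissue, were the reference. All 26 samples are labelled XY, so no ovary library was at hand. Ovary-type here refers to the direction of the listed genes, not to a measured ovarian level. All groups are whole gonads freed of the mesonephros, and no group carries another allele, transgene or treatment that the labels name. The labels give neither the ends of the deletions nor the zygosity, strain, parents, litters or number of founder lines. The replicates of Δ93 and Δ104 are labelled biological replicates. Unless another fit is named, p-values for differences between groups rest on a spread pooled over all 22 libraries of that table. This spread includes WT and the other deletions, is taken as shared by all groups, and describes these libraries only.

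Fgf9 encodes a secreted fibroblast growth factor that signals through FGF receptors in the early XY gonad. It helps keep Sox9 active in the supporting cells, which then become Sertoli cells, and it opposes Wnt4, a signal of the ovarian pathway. Supporting cells that do not take the Sertoli path express pre-granulosa genes such as Foxl2 and Fst, fetal Leydig cells do not form beside them, and the germ cells among them enter meiosis at about this stage. In whole-gonad RNA a lower level from fewer cells of a type cannot be told apart from less RNA per cell.

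Levels are given as CPM, read counts scaled to a common library size with the TMM method, and differences as log2 fold changes (log2 units). A gene was called when its adjusted p was under 0.05 in edgeR's quasi-likelihood test with Benjamini-Hochberg adjustment over 22941 genes. Library totals were 38.3 to 53.4 M counts in WT, 17.5 to 35.2 M in Δ104 and 20.6 to 46.9 M in Δ93, and every pair of replicates differed beyond counting noise.

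Several libraries stood apart from their group or from the label XY. The summed level of 7 Y-linked genes was 31.6, 31.9 and 78.0 CPM in WT. In Δ104 it was 5.22, 5.55, 1.92 and 36.8 CPM for replicates 1 to 4, and in Δ93 it was 6.88, 4.21, 1.34, 0.0265, 0.200 and 2.58 CPM for replicates 1 to 6. Only Δ104 replicate 4 reached the WT level, while Δ93 replicates 4 and 5 were under 1% of the WT median. Xist, the RNA that coats an inactive X chromosome, was at 0.0583 to 0.185 CPM in WT, 0.0491 to 0.584 CPM in Δ104, and 0.0766 to 0.990 CPM in Δ93 apart from replicate 4, which had 6.42 CPM. The germ cell gene Ddx4 was at 4.27 CPM in WT replicate 1, against 81.3 and 139 CPM in the other WT libraries, and at 29.2 CPM in Δ104 replicate 3, against 135 to 148 CPM in the rest of Δ104. The ratio of embryonic to adult beta-globin counts (Hbb-y to Hbb-bt, chosen after the values were seen) was 1.61 to 2.40 in Δ104 and 1.81 to 3.26 in WT. In Δ93 it was 2.51, 0.204, 1.47, 0.342, 0.570 and 1.13, so that 5 of the 6 Δ93 libraries lay below every Δ104 and WT library and replicates 2, 4 and 5 were lowest. Every library is labelled E13.5, no collection dates are given, and a difference in stage or date between the groups cannot be told apart from the deletion. The part of these differences in the results was not tested.

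**Figure D1:**
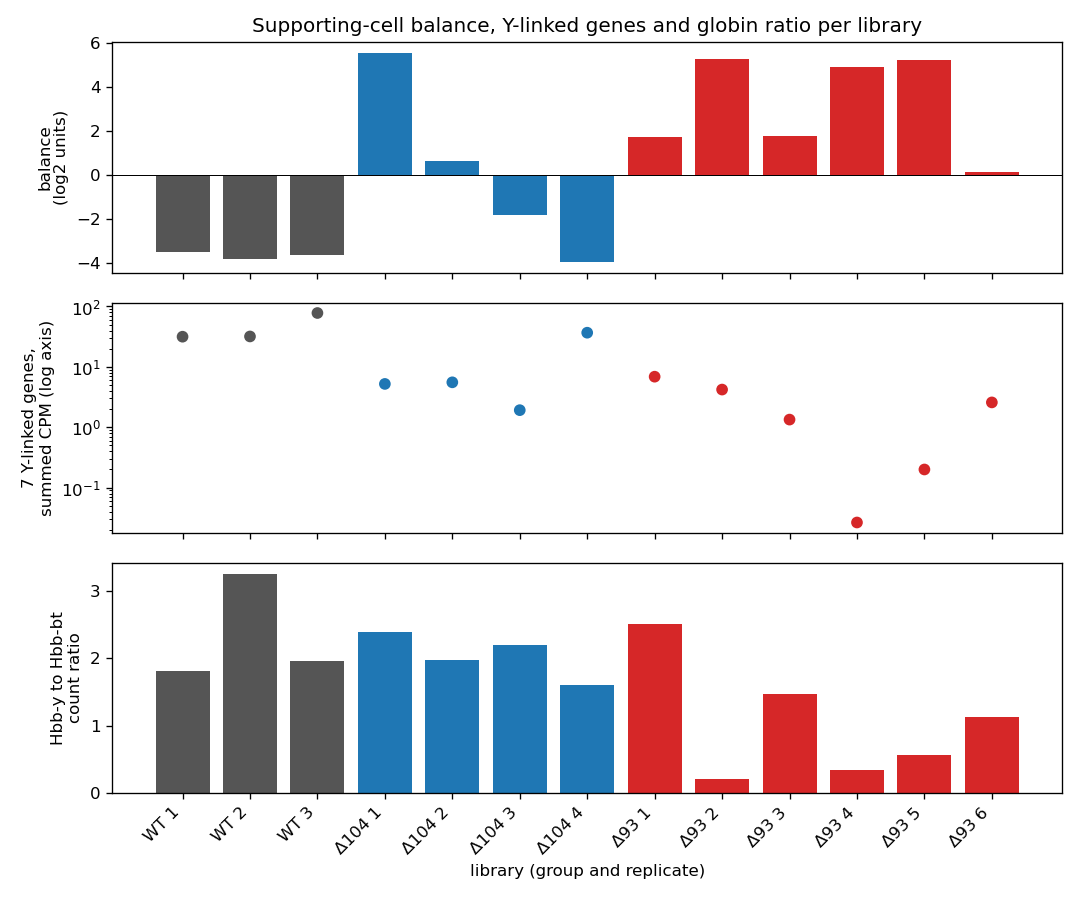
Each library of WT, Δ104 and Δ93 (x axis, group and replicate) is shown with its supporting-cell balance in log2 units (top, bars from 0), the summed CPM of 7 Y-linked genes on a log axis (middle, points) and the ratio of Hbb-y to Hbb-bt counts (bottom, bars from 0). The Y-linked sum was 36.8 CPM in Δ104 replicate 4 and at most 6.88 CPM in every Δ93 library, and the globin ratio was lowest in Δ93 replicates 2, 4 and 5.

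The targeted gene was measured first. Fgf9 (ENSMUSG00000021974, GRCm38 chromosome 14, 58070547 to 58112720, plus strand) was at 9.85, 9.21 and 9.55 CPM in the WT libraries. Its level was 2.72, 5.16, 6.98 and 4.52 CPM in Δ104 and 2.92, 2.30, 2.62, 4.75, 2.78 and 3.09 CPM in Δ93. All 10 deletion libraries lay below every WT library, and the ranges of the 2 deletions overlapped through Δ104 replicate 1 and Δ93 replicate 4. Δ93 minus Δ104 was −0.65 log2 units (SE 0.34, 95% interval −1.36 to 0.06, adjusted p 0.375 by edgeR), so a difference between the deletions was not shown and an Fgf9 level lower by up to 1.36 log2 units in Δ93 remained within the interval. The 7 protein-coding neighbours listed on chromosome 14 (Xpo4, Lats2, Sap18, Ska3, Mrpl57, Zdhhc20 and Micu2) had Δ93 minus Δ104 differences of −0.34 to 0.25 log2 units, and none was called.

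Pre-granulosa genes were high in every Δ93 library and spread from levels like those of Δ93 to WT levels in Δ104. Foxl2, the forkhead factor that marks granulosa identity, was at 0.829, 0.777 and 0.633 CPM in WT. In Δ104 it was at 77, 40.5, 13 and 1.22 CPM, a 63.3-fold range. In Δ93 it was at 42.5, 130, 79.9, 137, 141 and 52.0 CPM, a 3.31-fold range. The lowest Δ93 library thus stood above 3 of the 4 Δ104 libraries and below Δ104 replicate 1. The Δ93 minus Δ104 difference was 1.55 log2 units (SE 0.74, 95% interval 0.02 to 3.09, adjusted p 0.34).

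Fst, which encodes the activin antagonist follistatin, followed the same order of libraries in Δ104. Its levels were 175, 64.8, 11.5 and 1.12 CPM in Δ104 and 117, 210, 151, 214, 251 and 79.5 CPM in Δ93, against 1.01 to 1.69 CPM in WT (difference between deletions 1.43, SE 0.77, adjusted p 0.389). Wnt4, the secreted signal of the ovarian pathway, was at 194, 103, 64.0 and 39.7 CPM in Δ104. In Δ93 it was at 142, 256, 237, 290, 338 and 150 CPM, and in WT at 70.9, 30 and 41.4 CPM. Its difference between deletions was 1.23 log2 units (SE 0.38, adjusted p 0.166). Δ104 replicate 1 overlapped Δ93 for Wnt4, and Δ104 replicates 3 and 4 lay within the WT range.

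Irx3, an Iroquois homeobox factor of the early ovary, was at 115, 51.4, 12 and 1.17 CPM in Δ104 and at 68.4 to 197 CPM in Δ93. Msx1, a homeobox factor, was at 41.9, 20.5, 6.92 and 2.38 CPM in Δ104 and at 31.0 to 73.5 CPM in Δ93. For both genes, Δ104 replicate 1 lay inside the Δ93 range and the other 3 Δ104 libraries below it. Rspo1, which encodes a secreted enhancer of WNT signalling, was at 85.1, 52.2, 30.9 and 15.6 CPM in Δ104 and at 51.7 to 95.4 CPM in Δ93. Runx1, a factor of fetal granulosa cells, differed least among these, by 0.37 log2 units (SE 0.50, 95% interval −0.67 to 1.41), and Δ104 replicate 1 at 73.0 CPM exceeded all Δ93 libraries, which lay between 26.1 and 51.8 CPM. Lhx9, a factor of gonadal progenitors, was the 1 member of the list with a negative difference, −0.15 log2 units (SE 0.22).

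Over the 12 pre-granulosa genes the median difference of Δ93 from Δ104 was 1.00 log2 units, against −0.01 over all genes tested. None was called between the deletions, where 0.0523% of all genes were called, and 6 were higher at an unadjusted p under 0.05, a rule that 6.49% of all genes met in that direction. Without Δ104 replicate 1, edgeR called 6 of the 12 higher in Δ93, and the median was 1.66. That fit called 791 of all genes in either direction. DESeq2 with all libraries called 1 of the 12 and 546 of all genes. Compared with WT, 11 of the 12 rose in Δ93 (Foxl2 by 7.01 log2 units, SE 1.15, adjusted p 0.000992), where 7.23% of all genes were called higher. In Δ104 none was called against WT, where 0.061% of all genes were called, although all 12 were higher at an unadjusted p under 0.05 (10.4% of all genes), with Foxl2 at 5.46 log2 units (SE 1.09, adjusted p 0.0621). DESeq2 called 7 of the 12 higher in Δ104 than in WT, where it called 601 of all genes in either direction. With edgeR, 9 were called without Δ104 replicate 4, the library at WT levels (528 of all genes). Without Δ104 replicate 3, 2 were called (74 of all genes). Both deletions share the same WT libraries, and WT replicate 1 had few germ cell transcripts.

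Canonical WNT targets, genes that cells switch on when beta-catenin is active, were measured beside the ligands. Sp5, a zinc-finger target of WNT signalling, was at 30.9, 20.2, 7.56 and 6.42 CPM in Δ104, at 30.4, 54.8, 62.0, 44.1, 49.7 and 47.6 CPM in Δ93 and at 3.50 to 5.80 CPM in WT. Only Δ104 replicate 1 reached the lowest Δ93 library. Its difference between deletions was 1.56 log2 units (SE 0.43, adjusted p 0.131). Axin2, a negative regulator of the pathway, differed by 0.35 log2 units (SE 0.24, 95% interval −0.16 to 0.86), with 128, 84.6, 56.1 and 31.3 CPM in Δ104 and 79.3 to 114 CPM in Δ93. None of the 8 targets was called between deletions, and all 8 had a positive difference (median 0.56). Against WT, 5 of the 8 rose in Δ93 (7.23% of all genes were called higher) and none was called in Δ104 (0.061%). At an unadjusted p under 0.05, 3 were higher in Δ93 than in Δ104 (6.49% of all genes) and 4 higher in Δ104 than in WT (10.4%). DESeq2 called 1 of the 8 in the former comparison (546 of all genes) and 2 in the latter (601 of all genes). With edgeR, 1 was called between the deletions without Δ104 replicate 1 (median 0.88) or without Δ93 replicate 1. Those fits called 791 and 707 of all genes. The median was 0.35 without Δ104 replicate 4. In Δ104 against WT 4 were called without Δ104 replicate 4 (528 of all genes), and in Δ93 against WT 3 without WT replicate 2 (1591 of all genes).

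**Figure D2:**
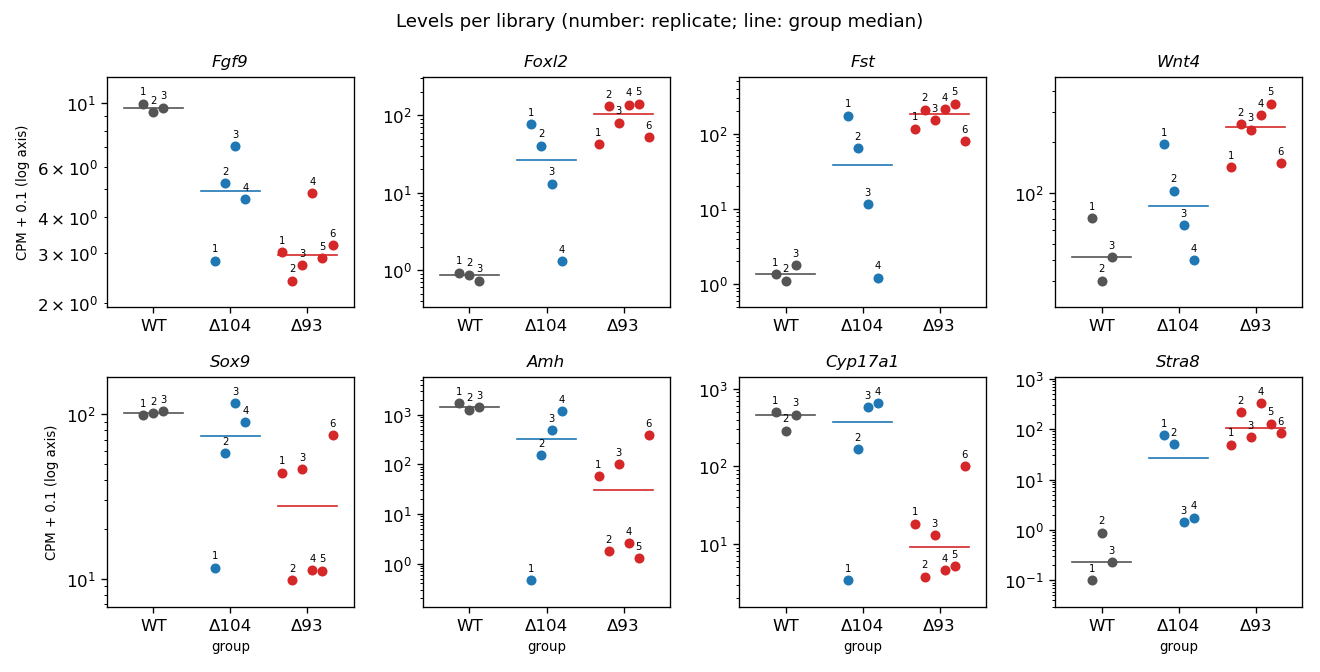
Points give the level of 8 genes in each library of WT (grey), Δ104 (blue) and Δ93 (red) as CPM + 0.1 on a log axis, with the replicate number beside each point and a line at the group median. Foxl2 runs from 1.22 to 77 CPM in Δ104 and from 42.5 to 141 CPM in Δ93, while Amh runs from 0.361 to 1170 CPM in Δ104 and from 1.18 to 384 CPM in Δ93.

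Sertoli cell genes gave the mirror image, with a wide spread inside both deletions. Sox9, the transcription factor at the head of the Sertoli programme, was at 101 ± 2.78 CPM in WT (SD, n = 3). It was at 11.6, 57.8, 116 and 88.9 CPM in Δ104, and at 43.9, 9.69, 46.1, 11.2, 11.1 and 74.1 CPM in Δ93. Relative to the WT mean, Sox9 therefore ranged from 11.5% to 115% in Δ104 and from 9.56% to 73.1% in Δ93. The difference between deletions was −1.07 log2 units (SE 0.56, 95% interval −2.25 to 0.10, adjusted p 0.379).

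Amh, which encodes the anti-Müllerian hormone secreted by Sertoli cells, spread most. It was at 1690, 1260 and 1400 CPM in WT, at 0.361, 155, 489 and 1170 CPM in Δ104, and at 58.5, 1.71, 102, 2.49, 1.18 and 384 CPM in Δ93. Amh was thus close to absent in Δ104 replicate 1 and in Δ93 replicates 2, 4 and 5, and every deletion library lay below WT. The difference between deletions was −2.30 log2 units (SE 1.35, adjusted p 0.421). Dhh, the desert hedgehog ligand that Sertoli cells send to interstitial cells, was at 0.417, 21.5, 46.0 and 67.2 CPM in Δ104 and at 11.6, 0.442, 12.7, 0.796, 0.626 and 27.4 CPM in Δ93 (WT 61.0 to 74.1 CPM). The same 4 libraries were lowest for Dhh. Sox8, a relative of Sox9 with a shared role in Sertoli cells, was at 2.22, 15.2, 28.0 and 35.8 CPM in Δ104 and at 6.22, 2.19, 5.66, 2.65, 1.93 and 15.1 CPM in Δ93 (difference −1.85, SE 0.57, adjusted p 0.168).

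Cyp26b1, the enzyme that breaks down retinoic acid in the fetal testis, was at 342, 343 and 266 CPM in WT. It was at 3.61, 93.2, 245 and 220 CPM in Δ104 and at 42.5, 8.66, 42.3, 8.09, 7.27 and 99.5 CPM in Δ93, so all deletion libraries were below WT (difference between deletions −2.01, SE 0.75, adjusted p 0.237). Dmrt1, a factor of Sertoli cells that germ cells express too, was the exception in the list, at 27.3 to 64.2 CPM in Δ104 and 22.5 to 75.4 CPM in Δ93, with a difference of 0.01 log2 units (SE 0.31).

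Over the 16 Sertoli genes the median difference was −1.65 log2 units and 15 of 16 differences were negative. None was called between the deletions, and 6 were lower at an unadjusted p under 0.05, a rule that 8% of all genes met in that direction. Without Δ104 replicate 1, edgeR called 5 of the 16 lower in Δ93 (791 of all genes called in either direction). Without Δ93 replicate 6 it called 1 (72 of all genes), and DESeq2 with all libraries called 2 (546 of all genes). The median was −1.07 without Δ104 replicate 4. Compared with WT, 7 of the 16 fell in Δ93 (Cyp26b1 −3.19 log2 units, SE 0.80, adjusted p 0.0112), where 6.84% of all genes were called lower. That count was 13 without Δ93 replicate 6 and 4 when WT replicate 1, WT replicate 2 or the pair of Δ93 replicates 4 and 5 was left out. In Δ104 none was called by edgeR or DESeq2, the median of the list was −0.96 log2 units, and 2 were lower at an unadjusted p under 0.05, a rule that 5.31% of all genes met in that direction.

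The degree of ovary-type change in a library was summarised as the mean log2 CPM of the 12 pre-granulosa genes minus that of the 16 Sertoli genes, here called the supporting-cell balance. It was −3.52, −3.84 and −3.66 in WT. In Δ104 it was 5.55, 0.63, −1.81 and −3.98, and in Δ93 it was 1.74, 5.26, 1.77, 4.92, 5.23 and 0.14. Δ104 replicate 1 had the highest balance of all 13 libraries and Δ104 replicate 4 the lowest, so Δ104 held both ends of the scale. Every Δ93 library had a balance above 0, and Δ93 replicates 2, 4 and 5 lay within 1 log2 unit of Δ104 replicate 1. The medians were −0.59 in Δ104 and 3.34 in Δ93, and the difference of 3.93 compares with a pooled SD of 3.07 within the groups. It was 2.36 without any 1 of Δ93 replicates 2, 4 and 5. No p is given, because the genes were chosen with results of these data known.

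Genes outside the WT range were also counted for each library. Over all genes tested, 32.2% to 39.9% lay above all 3 WT libraries in a deletion library, and 29.5% to 34.3% lay below them. Of the 12 pre-granulosa genes, 12, 12, 10 and 1 lay above all WT libraries in Δ104 replicates 1 to 4, and 11 or 12 did so in each Δ93 library. Of the 16 Sertoli genes, 15, 15, 14 and 6 lay below all WT libraries in Δ104, and 14 to 16 did so in each Δ93 library. The Sertoli count did not separate Δ104 replicate 3, with a balance of −1.81, from Δ93 replicate 6, with a balance of 0.14, since both had 14 Sertoli genes below WT. Their pre-granulosa counts were 10 and 12. Δ93 replicates 1, 3 and 6 combined a high pre-granulosa mean (6.14, 6.52 and 5.87 log2 CPM) with a partly kept Sertoli mean (4.40, 4.76 and 5.73 log2 CPM). Δ104 replicate 2 resembled these 3 (5.82 and 5.20 log2 CPM), and Δ93 replicates 2, 4 and 5 had Sertoli means of 1.64, 1.82 and 1.81 log2 CPM. The library with the highest Fgf9 in Δ93, replicate 4, was among those with the lowest Sertoli mean.

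**Figure D3:**
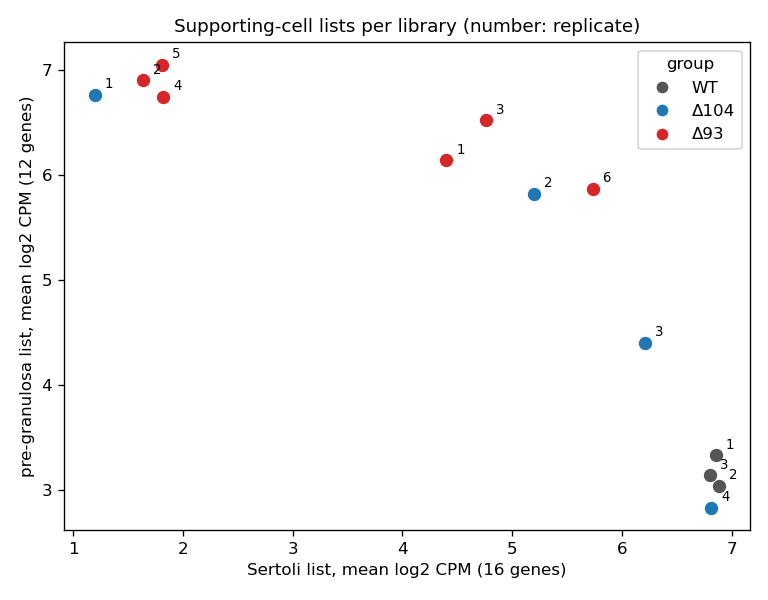
Each point is a library, with the mean log2 CPM of 16 Sertoli genes on the x axis and of 12 pre-granulosa genes on the y axis, coloured by group and numbered by replicate. Δ104 replicate 4 (6.81 and 2.83) lies beside the WT libraries, and Δ104 replicate 1 (1.20 and 6.76) lies beside Δ93 replicates 2, 4 and 5.

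Fgf9 was set against Foxl2 across libraries to ask whether libraries with less Fgf9 had more Foxl2. Across the 10 Δ93 and Δ104 libraries Pearson's r of log2 CPM was −0.52 (permutation p 0.108, adjusted 0.216 over 2 relations) and Spearman's rho −0.56 (permutation p 0.096, adjusted 0.192). These permutations took the 10 libraries as 1 set without regard to the deletion. The relation over all 10 therefore includes any difference between the groups. Leaving out Δ104 replicates 2 and 3, the 2 libraries farthest from the median Fgf9 level, gave r = −0.52. Within the 6 Δ93 libraries r was 0.13 (exact permutation p 0.883, adjusted 0.883) and rho −0.09 (exact permutation p 0.919, adjusted 0.919), and without replicates 2 and 4 r was −0.58. No relation passed the threshold.

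Receptors and feedback genes of FGF signalling were measured beside the ligand. Whether their levels follow from that of Fgf9 was not tested. Dusp6, a phosphatase that limits ERK activity, was at 61.2, 73.9 and 71.6 CPM in WT, at 17.2, 30.7, 52.0 and 54.7 CPM in Δ104 and at 24.9, 20.1, 31.1, 20.7, 20.3 and 37.1 CPM in Δ93. All deletion libraries were below WT. Spry1, a feedback inhibitor of FGF receptors, was at 12.9, 15.7, 20.9 and 32.4 CPM in Δ104 and at 14.7 to 21.2 CPM in Δ93, against 37.0 to 45.8 CPM in WT. Between the deletions Dusp6 differed by −0.58 log2 units (SE 0.26, adjusted p 0.303) and Spry1 by −0.30 (SE 0.21, 95% interval −0.74 to 0.15). None of the 11 listed genes was called between the deletions (median −0.20). Against WT, 5 fell and 1 rose in Δ93, where 6.84% of all genes were called lower and 7.23% higher. The gene that rose was the receptor gene Fgfr2 (1.13, SE 0.24, adjusted p 0.00413), and none of the 11 was called in Δ104 (lowest adjusted p 0.0925, Spry1). Between the deletions 1 was lower in Δ93 at an unadjusted p under 0.05 (8% of all genes) and DESeq2 called none. In Δ104 against WT, 6 were lower (5.31% of all genes) and 1 higher (10.4%) at that level. DESeq2 called 2 lower there, and 601 of all genes in either direction. With edgeR, 1 was called lower between the deletions without Δ104 replicate 1 (791 of all genes). In Δ104 against WT, 1 was called lower and 1 higher without Δ104 replicate 4 (528 of all genes).

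Fetal Leydig cell genes were measured beside the Sertoli genes, and again 1 Δ104 library stood apart from the rest. Cyp17a1, a steroidogenic enzyme of the androgen pathway, was at 501, 287 and 461 CPM in WT. It was at 3.30, 165, 582 and 647 CPM in Δ104, and at 18.2, 3.69, 12.8, 4.46, 5.06 and 101 CPM in Δ93. Δ104 replicates 2, 3 and 4 were thus above every Δ93 library, and Δ104 replicate 1 was below all of them. The difference was −3.85 log2 units (SE 0.99, 95% interval −5.91 to −1.79, adjusted p 0.107).

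Star, which encodes the protein that brings cholesterol into mitochondria, was at 253, 165 and 209 CPM in WT. Its levels were 12.5, 54.9, 195 and 202 CPM in Δ104 and 14.2, 13.1, 19.4, 10.6, 15.2 and 44.9 CPM in Δ93 (difference −2.57, SE 0.55, adjusted p 0.0768). Cyp11a1, the side-chain cleavage enzyme that starts steroid synthesis, was at 0.694, 101, 373 and 457 CPM in Δ104 and at 13.7, 2.19, 16.9, 1.22, 2.56 and 79.4 CPM in Δ93. Δ104 replicates 3 and 4 lay inside or above the WT range of 177 to 392 CPM. Insl3, a Leydig cell hormone, was at 0.0555, 0.393, 1.80 and 11.8 CPM in Δ104 and at 0.0632 to 1.94 CPM in Δ93, against 4.09 to 6.39 CPM in WT.

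All 8 Leydig genes had a negative difference between Δ93 and Δ104 (median −2.43 log2 units) and an unadjusted p under 0.05 (8% of all genes in that direction), and none was called by edgeR (lowest adjusted p 0.0768), while DESeq2 called 5 lower in Δ93. Of all genes, DESeq2 called 546 between the deletions in either direction. With edgeR, leaving out Δ104 replicate 1 gave 6 of the 8 called lower in Δ93 (791 of all genes). Leaving out Δ93 replicate 1 gave 3 (707 of all genes), and leaving out replicate 6 of Δ93 gave 4 (72 of all genes). Against WT, 7 of the 8 fell in Δ93 (Star −3.42 log2 units, SE 0.59, adjusted p 0.00121), where 6.84% of all genes were called lower. All 8 lay below every WT library in each Δ93 library, where 29.6% to 34.3% of all genes did so. The count of 7 was 4 without WT replicate 1. In Δ104 none of the 8 was called against WT by edgeR or by DESeq2, and 0 had an unadjusted p under 0.05 by edgeR. The number of them below every WT library was 8, 8, 2 and 0 for Δ104 replicates 1 to 4, where 33.2%, 31.3%, 29.9% and 29.5% of all genes lay below them. Adrenal cortex genes summed to 1.14, 2.51, 8.31 and 11.3 CPM in Δ104, rising over the replicates as Cyp17a1 did. They summed to 1.53 to 3.50 CPM in 5 Δ93 libraries and to 9.68 CPM in Δ93 replicate 4, 8.86 CPM of it Akr1b7, against 6.47 to 14.2 CPM in WT. Whether they came from adrenal tissue taken with the gonad or from cells of the gonad was not tested.

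Targets of the hedgehog signal in interstitial cells were ordered over the libraries much as Dhh was. Gli1, a transcriptional target and effector of the pathway, was at 2.03, 40.5, 63.8 and 83.7 CPM in Δ104 and at 18.7, 3.58, 18.1, 6.13, 4.16 and 29.5 CPM in Δ93 (WT 80.9 to 101 CPM). Its difference was −1.83 log2 units (SE 0.64, adjusted p 0.212). None of the 5 hedgehog genes was called between the deletions by edgeR, and 2 were called lower in Δ93 by DESeq2 (546 of all genes). At an unadjusted p under 0.05 by edgeR, 3 were lower in Δ93, as were 8% of all genes. Without Δ104 replicate 1, edgeR called 3 of the 5 lower (791 of all genes called in either direction). Of the 5, 3 fell in Δ93 against WT, where 6.84% of all genes were called lower.

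Interstitial progenitor genes included 1 gene called between the deletions by edgeR with all libraries. Wnt5a, a non-canonical WNT ligand of the interstitium (GRCm38 chromosome 14, 28504750 to 28527448), was at 357, 288 and 279 CPM in WT and at 117, 270, 447 and 315 CPM in Δ104. In Δ93 it was at 128, 113, 114, 86.5, 109 and 120 CPM, a 1.48-fold range. Wnt5a fell in Δ93 relative to Δ104 by 1.36 log2 units (SE 0.22, adjusted p 0.0174), with Δ104 replicate 1 inside the Δ93 range. Without any 1 of Δ104 replicates 2 to 4 or Δ93 replicates 2 to 5 it was not called (adjusted p up to 0.588 over all alternatives). Pdgfra, the platelet-derived growth factor receptor of steroid progenitors, was at 193, 408, 621 and 403 CPM in Δ104 and at 177 to 259 CPM in Δ93 (difference −0.87, SE 0.20, adjusted p 0.0768). All 7 genes of the list had a negative difference (median −0.84), and 6 of 7 fell in Δ93 against WT (6.84% of all genes). Between the deletions DESeq2 called 4 of the 7 lower in Δ93 (546 of all genes called in either direction). With edgeR, 5 were called without Δ104 replicate 1 (791 of all genes) and 2 without Δ93 replicate 1 (707 of all genes).

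Meiotic genes had a mean of 4.03 to 7.16 log2 CPM in Δ93 and of 4.13, 4.30, 1.31 and 2.93 log2 CPM in Δ104, against 0.11 to 2.26 log2 CPM in WT. They included Stra8, the retinoic acid-induced gene required for meiotic entry (GRCm38 chromosome 6, 34920163 to 34939344), which was at 0, 0.777 and 0.132 CPM in WT. Stra8 was at 76.7, 50.5, 1.34 and 1.65 CPM in Δ104, and at 49.3, 220, 69.0, 324, 128 and 81.9 CPM in Δ93. Δ104 replicates 3 and 4 were near the WT level and every Δ93 library was above them by a wide margin, while Δ104 replicates 1 and 2 lay in the Δ93 range. The difference was 2.15 log2 units (SE 1.08, 95% interval −0.08 to 4.39, adjusted p 0.359).

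Sycp3, a component of the axis of meiotic chromosomes, was at 6.94, 9.78, 0.640 and 4.18 CPM in Δ104 and at 6.84, 37.9, 8.35, 141, 20.6 and 9.47 CPM in Δ93. Dmc1, the recombinase of meiotic prophase, was at 11.6, 10.9, 4.24 and 6.96 CPM in Δ104 and at 10.5, 31.5, 10.4, 117, 20.9 and 12.5 CPM in Δ93. For both, Δ93 replicates 2, 4 and 5 were the highest libraries, and they were also those with the lowest ratio of embryonic to adult globin. Rec8, a meiotic cohesin, was at 98.6, 68.0, 6.45 and 8.66 CPM in Δ104 and at 70.7 to 206 CPM in Δ93.

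All 12 meiotic genes had a positive difference between Δ93 and Δ104 (median 1.89 log2 units), 9 of them at an unadjusted p under 0.05 (6.49% of all genes in that direction), and none was called. DESeq2 called 5 of them higher in Δ93 (546 of all genes called in either direction). With edgeR, 2 were called when Δ93 replicate 1 was left out (707 of all genes). The median was 1.06 without Δ93 replicate 4, the library highest for Sycp3 and Dmc1. Against WT, 10 of the 12 rose in Δ93 (Rec8 by 5.04 log2 units, SE 0.81, adjusted p 0.000905), where 7.23% of all genes were called higher. None was called in Δ104 (Rec8 3.64, SE 0.77, adjusted p 0.0621), where 2 were higher at an unadjusted p under 0.05 (10.4% of all genes). DESeq2 called 2 in Δ104, and 601 of all genes. The count of 10 was 4 when WT replicate 1, the library with few germ cell transcripts, was left out. It was 5 and 6 when the second or the third WT library was left out instead, and 5 when Δ93 replicate 4 was. In Δ104, edgeR called 1 without replicate 3 (74 of all genes) and 2 without replicate 4 (528 of all genes).

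Male germ cell genes had a mean of −1.51 to 1.65 log2 CPM in Δ93 and of −1.11, 1.14, 0.27 and 3.26 log2 CPM in Δ104. Lefty1, a Nodal pathway target of male germ cells, was at 0.916, 9.09, 6.22 and 44.2 CPM in Δ104 and at 2.92, 0.758, 1.63, 1.03, 0.652 and 15.5 CPM in Δ93. Nanos2, an RNA-binding protein of male germ cells, was at 2.04 CPM in Δ104 replicate 4, at 0 in the other Δ104 libraries and at 0 to 0.0531 CPM in Δ93, against 0 to 0.554 CPM in WT. Piwil4 went the other way, as the 1 tested gene of the list with a positive difference between the deletions (0.65 log2 units). It was higher in Δ93 than in WT by 1.58 log2 units, and those groups did not overlap. None of the 6 male germ cell genes tested was called by edgeR in any of the 3 comparisons, and DESeq2, which tested 7, called none. At an unadjusted p under 0.05, 1 was lower in Δ93 than in Δ104 (8% of all genes) and 0 differed between Δ104 and WT (15.7%). In Δ93 against WT 5 were lower at that level, for which the share of all genes is not given here. Without Δ93 replicate 6, the library with the highest mean in Δ93, edgeR called 4 of the 6 lower in Δ93 than in WT, and without WT replicate 1 it called 1. An edgeR fit of Δ93 and WT alone called 1 of the 5 genes it tested higher in Δ93. The median difference between the deletions was −2.03 log2 units with all libraries, −0.42 without Δ104 replicate 4 and −3.17 without Δ93 replicate 6. The 8 genes of germ cell identity showed no call between the deletions (median difference 0.20, and −0.04 to 0.61 without 1 library), and Ddx4 was at 136 to 232 CPM in Δ93.

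To show the sequence context of the marker of meiotic entry, the RefSeq promoter window of Stra8 (GRCm38.p6, plus strand, 250 bases before to 50 after the start site, chr6:34920698-34920997) is printed with capitals marking AGGTCA, the half-site letters bound by nuclear receptors such as retinoic acid receptors, searched on both strands.

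Stra8: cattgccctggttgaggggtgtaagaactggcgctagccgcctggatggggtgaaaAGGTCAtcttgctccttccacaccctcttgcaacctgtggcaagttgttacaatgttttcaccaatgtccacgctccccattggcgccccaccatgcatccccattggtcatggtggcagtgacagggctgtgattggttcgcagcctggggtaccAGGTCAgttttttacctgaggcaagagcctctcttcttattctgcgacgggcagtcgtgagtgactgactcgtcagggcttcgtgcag

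The letters occur at −194 and −38 from the start site. Of 32851 windows of the same length, 16.3% held AGGTCA at least once and 1.81% held it at least 2 times. Among the 12 meiotic genes, 10 matched a window and 3 held the letters (Stra8, Sycp3 and Hormad1). A match of letters describes the window and is no evidence of binding.

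**Figure D4:**
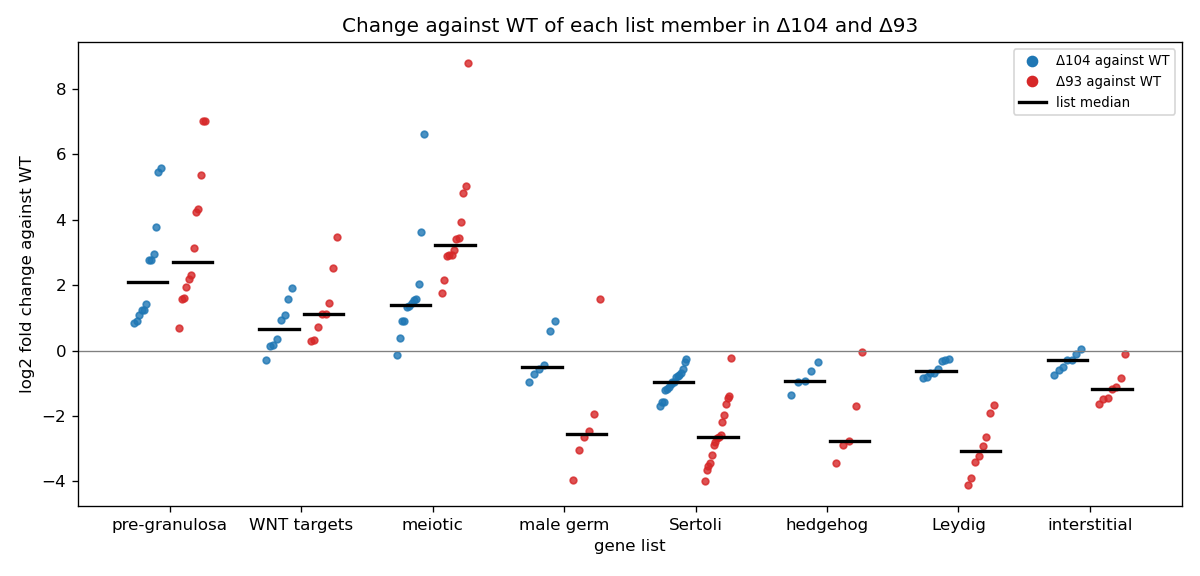
Points give the log2 fold change against WT of each tested gene of 8 lists (x axis) in Δ104 (blue) and Δ93 (red), with a black line at the list median. The median is farther from 0 in Δ93 for every list shown, for example −3.07 against −0.62 for the Leydig genes and 3.23 against 1.40 for the meiotic genes, and both sets share the 3 WT libraries.

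Across all genes, 12 were called between Δ93 and Δ104, which is 0.0523% of those tested. In Δ93, 1 of them was higher (0.00436%) and 11 were lower (0.0479%). The unadjusted p was under 0.05 for 3326 genes (14.5%), 1490 of them higher and 1836 lower in Δ93. Against WT, 3229 genes were called in Δ93 (1659 higher and 1570 lower, 14.1% of those tested) and 14 in Δ104 (all higher), although 3610 genes (15.7%) had an unadjusted p under 0.05 in Δ104. Whether the number of changed genes differs between the deletions was not tested. The count between the deletions depended on single libraries, with 791 genes called when Δ104 replicate 1 was left out, 707 when Δ93 replicate 1 was, 72 when Δ93 replicate 6 was, and 3 when any other library of either deletion was. It was 3 without Δ93 replicates 4 and 5, the libraries nearest to 0 for Y-linked genes, and 3 without Δ104 replicate 4, the library at the WT level. Without Δ93 replicates 2, 4 and 5, the libraries lowest for the globin ratio, 2 genes were called between the deletions (Mest and Gm56999) and 815 in Δ93 against WT. Without these 3 libraries the median difference between the deletions was 0.51 for the pre-granulosa genes, −0.84 for the Sertoli genes, −2.04 for the Leydig genes and 0.52 for the meiotic genes. Against WT, Δ93 then had 8 of 12 pre-granulosa, 0 of 16 Sertoli, 3 of 8 Leydig and 3 of 12 meiotic genes called. The authors' deposited table of Δ93 against Δ104, in DESeq2's layout, lists 555 genes at an adjusted p under 0.05 (210 higher and 345 lower). All 12 genes called here are among them. It also lists Star (adjusted p 0.00128), Cyp17a1 (0.00775), Cyp11a1 (0.0378) and Wnt4 (0.0416), which were not called here by edgeR with all libraries. Fgf9, Foxl2, Fst, Sox9, Amh, Dhh and Stra8 were not under 0.05 in either.

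Mest, Peg13 and Gm56999 had the largest falls of the called genes. Parents and founder clones are not labelled, so a difference between the mouse lines cannot be told apart from the deletion for these genes. Mest, an imprinted gene expressed from the paternal copy (ENSMUSG00000051855, GRCm38 chromosome 6, 30723547 to 30748465, plus strand), was at 925, 721 and 698 CPM in WT. It was at 560, 566, 591 and 532 CPM in Δ104, and at 6.79, 3.56, 4.99, 2.41, 3.26 and 9.26 CPM in Δ93. The groups did not overlap, and Δ104 spanned a 1.11-fold range that included libraries with Amh at 0.361 and at 1170 CPM. Whether the level of Mest is related to the degree of ovary-type change was not tested. Mest fell by 6.81 log2 units (SE 0.32, 95% interval −7.46 to −6.15, adjusted p 2.16e-11), and it was called under all 22 alternatives tried. Every Δ104 library lay below every WT library for Mest. Copg2, which overlaps the end of Mest on the opposite strand, was at 77.2 to 96.1 CPM in Δ104 and 95.7 to 144 CPM in Δ93 (difference 0.46, SE 0.14, adjusted p 0.17). The libraries were made with a directional kit, and the strand setting of the counting is not given in the sources used here.

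Because Mest was near 0 in all 6 Δ93 libraries, its 2 RefSeq promoter windows are printed, both on the plus strand of GRCm38.p6, with capitals marking the CG dinucleotide, the base pair context of DNA methylation. The first is chr6:30733256-30733555 and the second chr6:30737800-30738099.

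Mest, first window: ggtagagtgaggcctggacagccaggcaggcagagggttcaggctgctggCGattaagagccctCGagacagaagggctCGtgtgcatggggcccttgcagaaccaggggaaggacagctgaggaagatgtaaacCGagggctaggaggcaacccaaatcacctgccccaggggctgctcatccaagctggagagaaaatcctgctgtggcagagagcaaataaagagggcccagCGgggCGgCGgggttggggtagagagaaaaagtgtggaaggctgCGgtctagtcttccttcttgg
Mest, second window: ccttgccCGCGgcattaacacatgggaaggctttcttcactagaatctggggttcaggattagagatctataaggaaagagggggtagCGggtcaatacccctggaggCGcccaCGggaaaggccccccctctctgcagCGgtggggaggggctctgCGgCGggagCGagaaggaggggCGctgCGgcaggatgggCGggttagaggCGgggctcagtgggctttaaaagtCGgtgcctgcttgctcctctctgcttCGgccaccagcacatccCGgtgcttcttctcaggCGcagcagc

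The first window held 8 CG dinucleotides and the second 17, against a median of 7 over all 32851 windows. As many or more were held by 48.6% of windows for the first and by 31.4% for the second. No methylation was measured, so the counts describe the sequence only.

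Peg13, a non-coding imprinted transcript within an intron of Trappc9 (ENSMUSG00000106847, chromosome 15, 72805600 to 72810324, minus strand), was at 36.9, 5.36 and 31.0 CPM in WT. It was at 28.9, 21.5, 31.0 and 1.61 CPM in Δ104 and at 0.141, 0.0843, 0.108, 0.292, 0.150 and 0.102 CPM in Δ93. The groups did not overlap, with Δ104 replicate 4 closest to Δ93. Peg13 fell by 7.13 log2 units (SE 0.91, adjusted p 0.000843) and was called under 20 of the 22 alternatives, not with a replicate block (adjusted p 0.0781) or when Δ93 replicates 2, 4 and 5 were left out (adjusted p 0.251). Peg13 in Δ104 replicate 4 was below the lowest WT library. Its host Trappc9, which encodes a trafficking complex subunit, was at 44.3 to 50.4 CPM in Δ104 and 43.6 to 76.3 CPM in Δ93 and was not called (0.44, SE 0.27). Reads of the 2 genes overlap in position, so the split between them depends on the counting.

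Gm56999 (ENSMUSG00000121179) is a predicted gene named in the deposited table, and GENCODE M21 gave no position for it. It was at 4.87, 3.36 and 3.43 CPM in WT, at 3.33, 6.00, 5.58 and 6.18 CPM in Δ104 and at 0.236, 0.147, 0.108, 0.133, 0.1 and 0.102 CPM in Δ93. It fell by 5.27 log2 units (SE 0.31, adjusted p 1.17e-09) and was called under all 22 alternatives. Reads shared with another gene could not be judged without its position.

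The 3 genes also had values in the other deletions of the table, Δ306 (3 libraries) and Δ225 (6 libraries). Mest was at 467 to 719 CPM in Δ306 and 386 to 695 CPM in Δ225, and Gm56999 at 5.29 to 5.53 and 4.36 to 11 CPM, so both were near 0 in Δ93 alone of the 4 deletions. Peg13 was at 0.219, 17.3 and 23.9 CPM in Δ306 and at 0.0967 to 0.390 CPM in Δ225, so its low level was shared by Δ93, Δ225 and 1 Δ306 library. Of 29 imprinted genes tested, Mest and Peg13 were the 2 called between Δ93 and Δ104, and the median difference of the list was −0.11.

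The 9 other called genes were called under 8 or 9 of the 22 alternatives and under 3 of the 10 that left out 1 library. Gja1, the gap junction protein connexin 43, was at 133, 165, 300 and 219 CPM in Δ104 and at 94.6 to 124 CPM in Δ93. It fell by 0.97 log2 units (SE 0.17, adjusted p 0.0236) with no overlap. Car12, a carbonic anhydrase, was at 4.28, 11.9, 11.2 and 8.51 CPM in Δ104 and at 2.51 to 4.01 CPM in Δ93, and Δ104 replicate 1 was again nearest to Δ93 (−1.55, SE 0.25, adjusted p 0.0174). Lifr, the receptor of leukaemia inhibitory factor, was at 52.2 to 125 CPM in Δ104 and 31.7 to 50.9 CPM in Δ93 (−1.08, SE 0.20, adjusted p 0.0356). These 3 and Mest, Peg13 and Gm56999 were among the called genes whose groups did not overlap, a rule that 1.89% of all genes met.

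In Efna5, Pcdh8, Bdnf and Slitrk2, Δ104 replicate 1 lay inside or just below the Δ93 range. Efna5, an ephrin ligand, was at 7.80, 25.4, 37.0 and 30.5 CPM in Δ104 and at 5.56 to 9.77 CPM in Δ93 (−1.74, SE 0.28, adjusted p 0.0174). Pcdh8, a protocadherin, was at 0.666, 8.80, 12.4 and 17 CPM in Δ104 and at 0.660 to 1.67 CPM in Δ93 (−3.10, SE 0.53, adjusted p 0.0236). Bdnf, a neurotrophin, was at 0.222, 2.16, 3.95 and 3.70 CPM in Δ104 and at 0.253 to 0.561 CPM in Δ93 (−2.73, SE 0.49, adjusted p 0.0334). Slitrk2, a neuronal membrane protein, gave −2.20 (SE 0.40, adjusted p 0.0356). For these genes Δ104 replicates 3 and 4 had levels like those of WT, for example 13.6 to 15.3 CPM for Pcdh8.

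**Figure D5:**
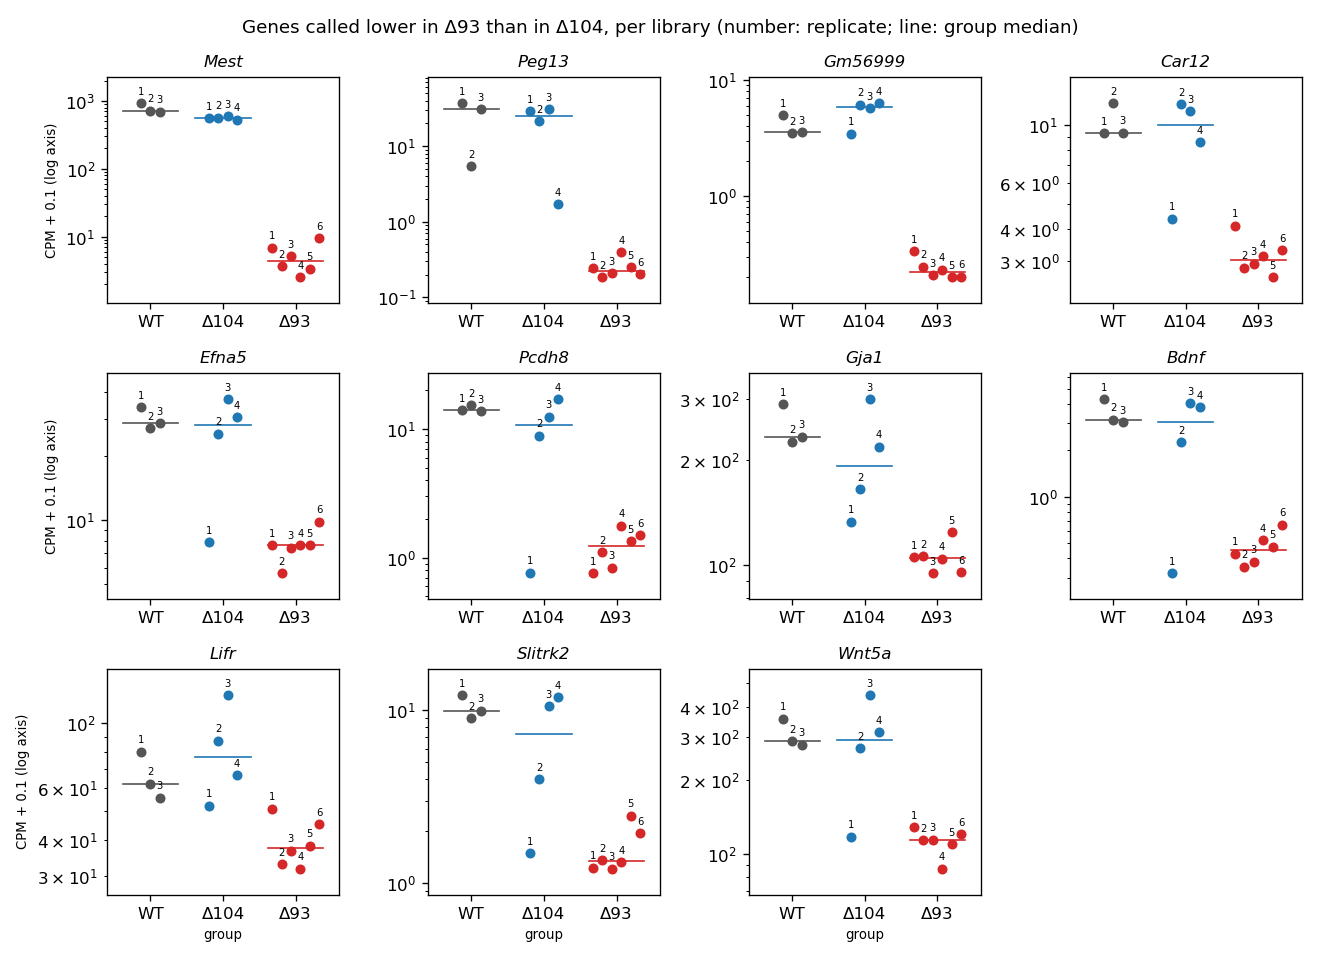
Points give the level of the 11 genes called lower in Δ93 than in Δ104 in each library of WT (grey), Δ104 (blue) and Δ93 (red), as CPM + 0.1 on a log axis with replicate numbers and lines at group medians. For Mest the Δ104 libraries lie at 532 to 591 CPM and the Δ93 libraries at 2.41 to 9.26 CPM, while for Pcdh8 Δ104 replicate 1 (0.666 CPM) lies among the Δ93 libraries.

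Genes with no overlap between the deletions, an unadjusted p under 0.05 and a mean of at least 1 CPM numbered 160 higher and 92 lower in Δ93, where 1.12% and 0.772% of all genes lacked overlap in each direction. Of the 10 with the largest positive difference, Mei1, Terb2 and Hfm1 are genes of meiotic recombination or chromosome movement, none called. Mei1 was at 0.555, 0.442, 0.0581 and 0.146 CPM in Δ104 and at 0.566, 10.8, 0.976, 40.5, 5.54 and 1.25 CPM in Δ93 (4.96, SE 1.18, adjusted p 0.0905). Its lowest Δ93 library was at the level of the highest Δ104 library, and replicates 2, 4 and 5 were again highest. Dmrta2, a DMRT-family factor, was at 0.174 to 1.92 CPM in Δ104 and 1.98 to 10.3 CPM in Δ93 (2.23, SE 0.52, adjusted p 0.0879). On the lower side, beyond the called genes, Kif26b, a kinesin-family gene, was at 93.5, 155, 261 and 103 CPM in Δ104 and at 31.0 to 82.5 CPM in Δ93 (−1.36, SE 0.28, adjusted p 0.0704).

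Markers of other tissues were read beside these results. Mesonephric markers summed to 27.3 to 57.5 CPM in Δ104 and 47.9 to 62.0 CPM in Δ93, endothelial markers to 349 to 447 and 336 to 458 CPM, and macrophage markers to 31.0 to 40.4 and 27.3 to 53.4 CPM. Erythroid genes summed to 16200 to 35500 CPM in Δ104 and 5360 to 58700 CPM in Δ93, highest in Δ93 replicates 1 and 4. None of the 7 mesonephric, 7 endothelial, 7 macrophage or 8 erythroid genes was called between the deletions by edgeR. At an unadjusted p under 0.05, 1 mesonephric gene was lower in Δ93 (8% of all genes) and 0 of the others differed. DESeq2 called 1 mesonephric gene lower and none of the others. With edgeR, 1 mesonephric gene was called lower without Δ104 replicate 1 (791 of all genes) or without Δ93 replicate 1 (707 of all genes). Without Δ93 replicate 1, 1 of the 8 erythroid genes was also called lower in Δ93.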

How the data were processed

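Polyadenylated RNA was extracted from XY gonads at embryonic day 13.5 and made into directional libraries, per the labels' protocols. The authors deposited whole-number counts per gene for 22 libraries over 57186 genes. The submitters' processing notes name STAR, DESeq2 and mm10 for Δ93 and Δ104, and add STAR 2.7.10a, featureCounts and Subread for WT. The counting annotation and strand setting are not given in the sources used here. The authors also deposited a Δ93 against Δ104 table with log2 fold changes, p-values and adjusted p-values in DESeq2's layout, per the file headers.

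Groups came from the labels, and 0 columns were left unused. Symbols came from GENCODE M21 for 51880 genes and from the deposited tables for 5306. The test was edgeR's quasi-likelihood F-test (edgeR 4.0.16, R 4.3.3) after filterByExpr and TMM scaling, with Benjamini-Hochberg adjustment, in 1 fit of the 22 libraries (22941 genes, residual degrees of freedom 17). The SE of a log2 fold change was its size divided by the square root of F. Mean log2 CPM used a prior count of 2. Correlations used exact permutation for 6 libraries and 100000 resamples for 10. The pipeline was tested on simulated data. Promoter windows are RefSeq's for GRCm38.p6, and coordinates are GENCODE M21 on GRCm38, the assembly that mm10 names.

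Named genes were Fgf9, the 19 gene lists, every called gene (at most 30), and the 10 higher and 10 lower with the largest difference among genes without overlap whose mean CPM was 1 or more and whose unadjusted p was under 0.05. Some genes that the rule names are not reported here. The comparison, lists and rules were chosen with earlier results of these data known. Alternatives were DESeq2 1.42.0, RLE or no composition factor, other filters, a threshold of 0.01, fits of fewer groups, a replicate block, and leaving out libraries. The fits without Δ93 replicates 4 and 5, without Δ93 replicates 2, 4 and 5, and without replicate 1 of both deletions, were added after seeing the data.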

Additional observations from a re-analysis of the deposited data

Results flagged for a closer look

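In groups of 4 to 10 libraries, a value was marked when its gap to the nearest other library was too large a part of the group's range for Dixon's test at the 95% level. Of 130 sets tested, 21 were marked, and chance marks about 1 in 20.

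In Δ104, replicate 4 stood above the others for Insl3 (11.8 CPM against 0.0555 to 1.80), for the germ cell gene Nanos2 (2.04 CPM against 0) and for the Y-linked sum (36.8 CPM against 1.92 to 5.55). Replicate 3 was low for Ddx4 (29.2 CPM against 135 to 148). Replicate 2 was high for the mesonephric marker Tfap2b (9.88 CPM against 0.116 to 0.250).

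In Δ93, replicate 6 was highest for Sertoli and Leydig genes. It had Sox8 at 15.1 CPM (others 1.93 to 6.22), Amh at 384 CPM (1.18 to 102), Star at 44.9 CPM (10.6 to 19.4) and Cyp11a1 at 79.4 CPM (1.22 to 16.9). It also had Hsd3b1 at 87.1 CPM (24.5 to 42.4), Cyp17a1 at 101 CPM (3.69 to 18.2) and Lefty1 at 15.5 CPM (0.652 to 2.92).

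Replicate 4 of Δ93 was highest for genes of several kinds. Fgf9 was at 4.75 CPM (others 2.30 to 3.09), Sycp3 at 141 CPM (6.84 to 37.9), Dmc1 at 117 CPM (10.4 to 31.5) and Mei1 at 40.5 CPM (0.566 to 10.8). Xist was at 6.42 CPM (0.0766 to 0.990), Akr1b7 at 8.86 CPM (0.377 to 1.02), the adrenal sum at 9.68 CPM (1.53 to 3.50) and Peg13 at 0.292 CPM (0.0843 to 0.150). Replicate 1 of Δ93 had Gm56999 at 0.236 CPM (0.1 to 0.147).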

How the results depend on the processing

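Between Δ93 and Δ104 (12 genes called), DESeq2 called 546, no filter on low counts 35, a mean CPM of at least 1 gave 44, an adjusted p under 0.01 gave 3, and fits of WT, Δ104 and Δ93 or of the 2 groups gave 4 each. Leaving out 1 library gave 3 to 791, leaving out Δ93 replicates 4 and 5 gave 3, leaving out Δ93 replicates 2, 4 and 5 gave 2, and leaving out replicate 1 of both deletions gave 1532. Against WT, Δ93 (3229) gave 1234 at an adjusted p under 0.01, 1980 without replicates 4 and 5, 815 without replicates 2, 4 and 5, and 1486 to 3572 without 1 library, lowest without WT replicates 1 (1486), 2 (1591) and 3 (1813). Δ104 against WT (14) gave 601 with DESeq2, 26 without a composition factor, 31 without a filter, 22 at a mean CPM of at least 1, 3 at an adjusted p under 0.01 and 1 to 528 without 1 library, with 528 without Δ104 replicate 4 and 74 without Δ104 replicate 3. Its fit of 2 groups called 0 by edgeR (4108 genes at an unadjusted p under 0.05), and with only Δ104 replicate 4, the 1 library at or above 25% of the Y-linked sum of WT, 1 gene was called and that library was assumed to vary like the others. For Δ93 the same rule removed all 6 libraries, so no fit was made. The cause of these shifts was not tested.

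With a replicate block, 2 genes were called between Δ93 and Δ104 (Mest and Gm56999), 3346 in Δ93 against WT and 470 in Δ104 against WT, and Peg13 was not called (−6.74, adjusted p 0.0781). Among the list counts against WT that the block moved in Δ93 were the meiotic genes (10 to 5) and the male germ cell genes (0 to 2). The Sertoli genes (7 to 9) and the Leydig genes (7 to 8) moved there too. In Δ104 the block moved the pre-granulosa genes called from 0 to 4 and the meiotic genes from 0 to 1, among others. The numbers are not known to pair embryos: same-numbered libraries had correlations of 0.1, 0.03, 0.06 and 0.1, and not every Δ93 library correlated best with its own number.

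Fgf9 was not called between the deletions under any of 22 alternatives (−0.83 to −0.39 log2 units, adjusted p 0.183 to 0.989). The difference in median balance stayed between 2.33 and 5.51. The correlation of Fgf9 with Foxl2 within Δ93 turned from 0.13 to −0.58 without replicates 2 and 4.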

Other observations

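Among the other imprinted genes, H19 and Phlda2 varied widely within groups. H19, a non-coding RNA expressed from the maternal copy, was at 1250, 9.21 and 1590 CPM in WT, at 298, 13.9, 9.19 and 12.5 CPM in Δ104 and at 14.9 to 40.8 CPM in Δ93. Its difference between the deletions was −1.73 log2 units (SE 1.27, adjusted p 0.507 by edgeR), and WT replicate 2 lay with the deletion libraries. Phlda2, a growth-restricting gene in a neighbouring imprinted domain, was at 0.0754 to 0.311 CPM in WT, at 27.0, 7.81, 0.233 and 0.0486 CPM in Δ104 and at 5.04 to 19.3 CPM in Δ93. Phlda2 rose in Δ93 against WT (5.79 log2 units, SE 1.32, adjusted p 0.00642), and in Δ104 it was high in the same 2 replicates that had high Foxl2.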
